A study of Homo sapiens with 32 samples.

Results

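Mitochondrial ribosomes make the 13 proteins encoded by mitochondrial DNA, and all of their own proteins are made from nuclear genes. The mRNAs of those proteins, named MRPL for the large subunit and MRPS for the small one, were followed here in human HEK293T embryonic kidney cells across RNA-Seq, Subunit-Seq and m6A-eCLIP. The members were all genes whose symbol was MRPL or MRPS with a number and at most 1 letter from A to C, without pseudogenes. There were 78 of them among the 58721 genes of the tables, 49 MRPL and 29 MRPS genes. The rule reads gene symbols only.

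The RNA-Seq part had 4 groups of 2 libraries. DD Tg and WT Tg cells were given 600 nM thapsigargin (Tg) for 16 h, and DD DMSO and WT DMSO cells had an equal volume of the solvent DMSO. DD cells carried the phosphomimetic eIF3d with S528D and S529D, and WT cells wild-type eIF3d. The protein is the part of the translation initiation factor eIF3 known to bind capped 5′ ends. Thapsigargin inhibits SERCA, the pump that fills the endoplasmic reticulum (ER) with calcium, and so evokes ER stress. Subunit-Seq had IP Tg, input Tg, IP DMSO and input DMSO groups of 2 libraries, all from cells with HA-eIF3d-TEV, an eIF3d with an HA tag and a TEV protease site. There the eIF3d was pulled down with anti-HA beads and its cap-binding domain was released with TEV protease. The m6A-eCLIP part gave 1 list of N6-methyladenosine (m6A) positions for each of DD Tg, WT Tg, DD DMSO and WT DMSO. The labels do not say whether 2 libraries of a group came from separate cultures, so p-values rest on the spread between these libraries only. In Subunit-Seq the fit took that spread from all genes at a similar level, not from the member's own libraries. All groups are 1 established cell line, how the eIF3d forms were introduced is not given in the sources used here, and reads of an introduced and a native EIF3D gene cannot be told apart.

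A mitochondrial ribosome holds proteins related to those of bacterial ribosomes and others found only in mitochondria. By name, 46 members belong to families shared with bacteria and 32 are specific to mitochondria. Some members do other work: MRPS36, listed by RefSeq as KGD4, is a subunit of the 2-oxoglutarate dehydrogenase complex, and MRPS18A and MRPS30 encode proteins found in the large subunit despite their names. The genes are scattered over many chromosomes, and factors such as NRF1, GABP and YY1 are known activators of nuclear genes for mitochondria.

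Several libraries stood apart from the other library of their group. Depth was 4508483 to 10163214 reads in RNA-Seq and 5102852 to 16860637 in Subunit-Seq. EIF3D stood at 64.3 and 29.2 RPKM in the DD Tg libraries and at 44.2 and 91.2 RPKM in WT Tg. It stood at 37.5 and 76.6 RPKM in DD DMSO and at 68.3 and 69.6 RPKM in WT DMSO. Its level overlapped between the genotypes, and a gene-level count does not read the substituted codons. HSPA5, the ER chaperone BiP and a standard marker of ER stress, was at 38.6 and 126 RPKM in Subunit-Seq input Tg against 9.06 and 13.8 in input DMSO. In RNA-Seq HSPA5 overlapped between Tg and DMSO, at 65.9 and 58.7 RPKM in DD Tg against 125 and 33.2 RPKM in DD DMSO. In WT Tg it was at 97.5 and 69.5 RPKM against 72.6 and 33.4 RPKM in WT DMSO. The second DD Tg library stood apart, with 57.3% of its reads from the mitochondrial ribosomal RNAs against 25.4% to 49.8% in the other RNA-Seq libraries. The second input DMSO library had 6395 genes at 1 RPKM or more, against 8503 to 11452 in the other inputs. Medians of all tested members relative to all genes that rest on these 2 libraries are given with and without them. Medians of parts of the members, by promoter element, subunit, level or length, and of related lists are given with them only.

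A short element was found in the promoters of some members. RefSeq promoters (GRCh38.p14), taken as 250 bases before to 50 bases after the start set for each promoter, were matched for 69 of the 78 members. That start differs from the start of the gene span in some members, among them MRPL47. The letters AAGATGGC, the core of the site bound by YY1, were searched on both strands and found in 20 of the 69 (29.0%), against 3.91% of 15843 promoters of protein-coding genes. CCGGAAGT, a site of the ETS family to which GABP belongs, was in 11 (15.9%), against 6.19%. GCGCATGC, the core of the NRF1 site, was in 6 (8.7%), against 4.26%. GGGGCGGGG, a GC box of the kind SP1 binds, was in 17 (24.6%), against 22.4%. A start with a C followed by 4 more pyrimidines, as in mRNAs of cytosolic ribosomal proteins, was in 5 (7.25%), against 4.6%. Such matches describe letters, not binding.

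Of the 21 copies of AAGATGGC, 17 read in the direction of the gene and 15 began within the first 50 transcribed bases, where the letters contain an ATG. The windows below are shown for members with a described role and are 30 bases long. Capitals mark the element, or its reverse complement where it lies on the other strand, and each reads 5′ to 3′ along the gene's own strand.
MRPS7 (chr17:75261887-75261916, plus strand): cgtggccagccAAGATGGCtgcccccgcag
MRPS18A (chr6:43687764-43687793, minus strand): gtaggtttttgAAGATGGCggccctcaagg
MRPS18B (chr6:30617852-30617881, plus strand): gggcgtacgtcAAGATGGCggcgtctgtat
MRPS27 (chr5:72320206-72320235, minus strand): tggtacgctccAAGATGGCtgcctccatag
MRPS30 (chr5:44808949-44808978, plus strand): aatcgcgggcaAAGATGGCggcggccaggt
MRPL47 (chr3:179604712-179604741, minus strand): ggcaggatgtgGCCATCTTaagtgagggca
The element began at base 20 of MRPS7, 10 of MRPS18A, 24 of MRPS18B, 17 of MRPS27 and 14 of MRPS30, counted from 1 at the promoter's start. In MRPL47 it lay before the promoter's start, from base -92. The 20 members with the element had a median mean level of 13.3 RPKM and the 49 matched members without it 17.9 RPKM. Of the members tested, 17 with the element and 48 without it had median log2 differences of -0.02 and -0.10 for IP against input in Tg, and of -0.15 and -0.12 in DMSO. For DD against WT in RNA-Seq the medians were 0.05 and -0.22 in Tg and 0.35 and 0.34 in DMSO.

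The mRNAs covered a wide range of levels, as the plot of levels by library shows. RPKM divides the reads of a gene by its length and by the depth of the library, so levels can be set side by side between genes. MRPS34, a small-subunit protein whose loss causes a mitochondrial disease, had the highest mean over the 8 RNA-Seq libraries at 145 RPKM. It was followed by MRPL41 at 134, MRPS26 at 102, MRPS21 at 97.8 and MRPL14 at 91.0. MRPS34 was read at 107 and 92.9 RPKM in DD Tg libraries and at 45.4 and 357 RPKM in those of WT Tg. It was at 62.0 and 261 RPKM for DD DMSO and at 43.9 and 192 RPKM for WT DMSO. Within each group but DD Tg its 2 libraries lay further apart than the group means, so the order of the first 5 members is not settled by these data. MRPL41, one of the proteins specific to mitochondria, stood at 112 and 36.2 RPKM in DD Tg libraries and at 66.6 and 198 RPKM in those of WT Tg. It was at 88.5 and 199 RPKM for DD DMSO and at 72.5 and 300 RPKM for WT DMSO.

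**Figure D1:**
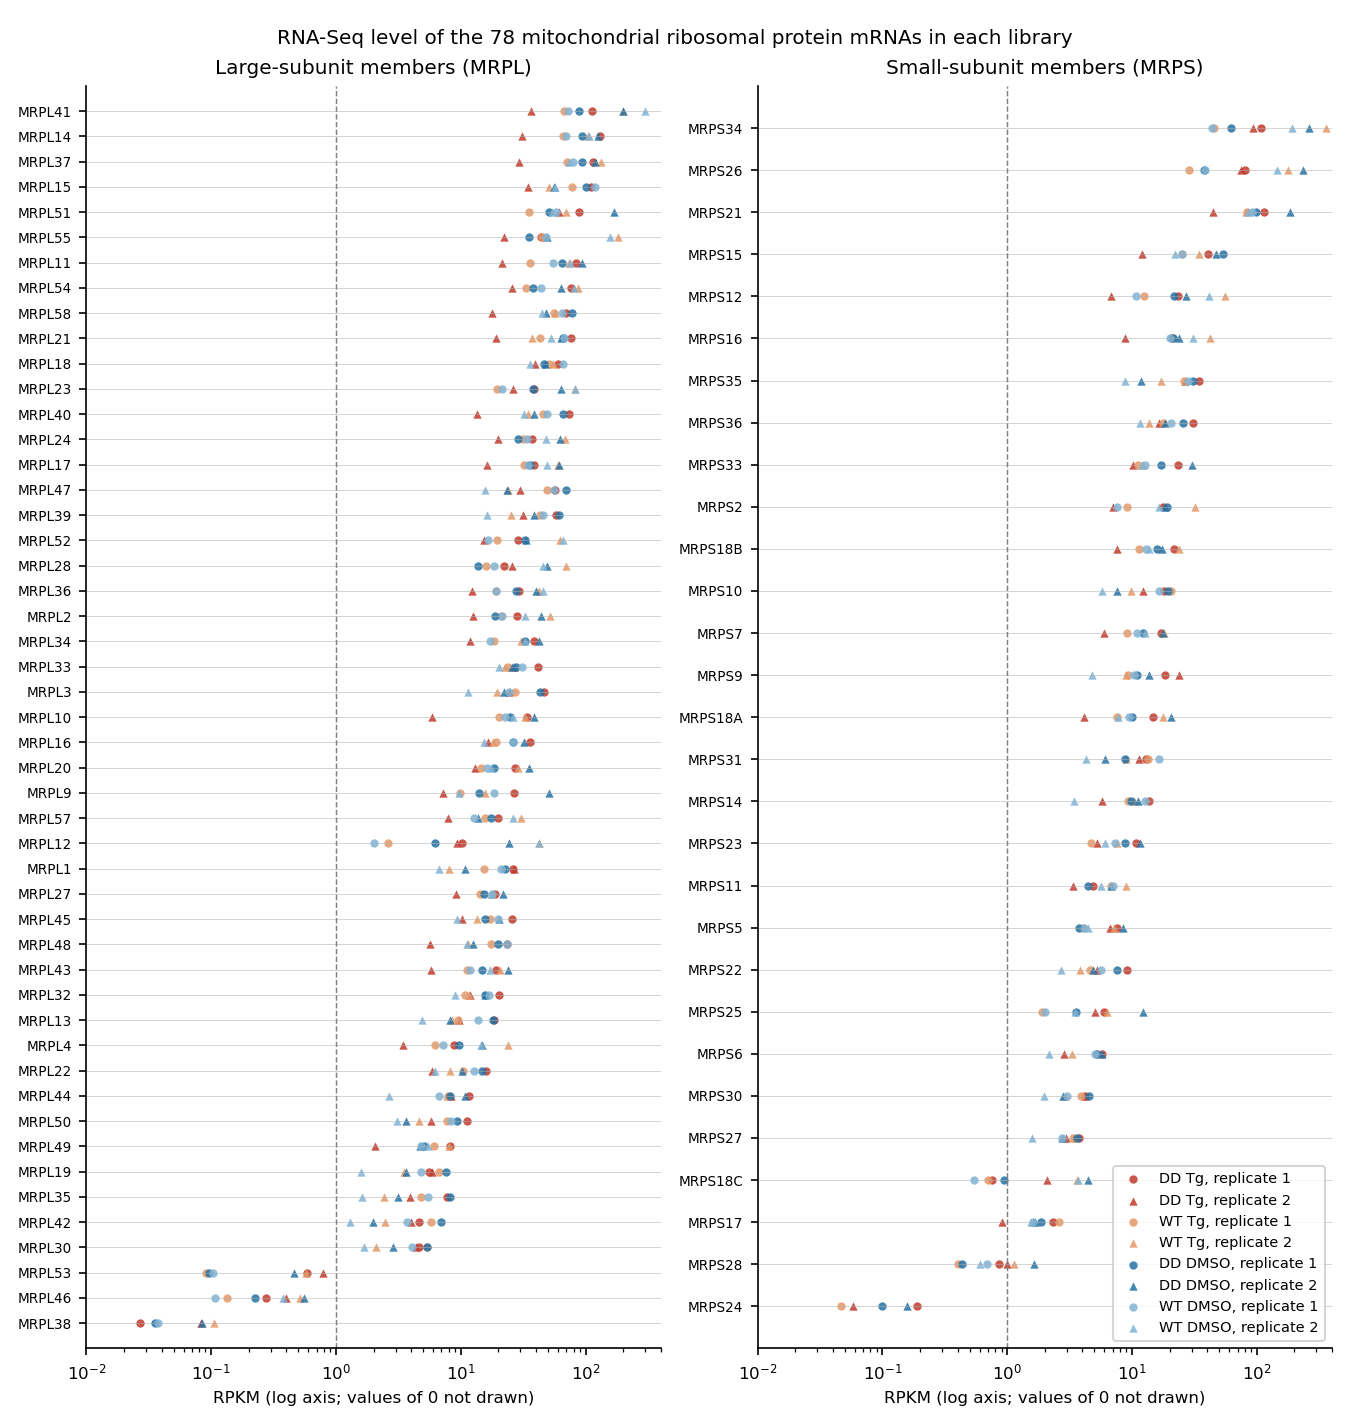
RPKM (log axis) of each of the 78 members in the 8 RNA-Seq libraries, MRPL left and MRPS right, ordered by mean level; colours are groups, circles the first and triangles the second library of a group. Most members lie between 1 and 100 RPKM, 5 have a mean left of the dashed line at 1 RPKM, and the red triangle of DD Tg replicate 2 is often the lowest.

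At the low end 5 members had a mean under 1 RPKM and were not tested in RNA-Seq: MRPS28 at 0.845, MRPL53 at 0.337, MRPL46 at 0.324, MRPS24 at 0.0688 and MRPL38 at 0.0465 RPKM. The whole of MRPS24 and of MRPS28 lies within the span of a readthrough gene, URGCP-MRPS24 and TPD52-MRPS28, and how the counting treated shared reads is not given in the sources used here. Of the 73 tested members the lowest were MRPS17 at 1.76 RPKM and MRPS18C at 2.1 RPKM. The 3 paralogs MRPS18A, MRPS18B and MRPS18C, which descend from a single bacterial family, differed in level. MRPS18B averaged 15.5 RPKM and MRPS18A 11.5, within their spread across libraries, and MRPS18C at 0.539 to 4.47 RPKM lay below both except that its highest library passed the lowest of MRPS18A, 4.14 RPKM. Other members share part of their span with a neighbouring gene, among them MRPL34 with ABHD8, MRPL43 with SEMA4G, MRPS6 with SLC5A3, MRPS25 with NR2C2 and MRPS16 with the antisense transcript DNAJC9-AS1, and whether shared reads were split is not given in the sources used here. RNA-Seq used a kit that does not mark strand.

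Members together took 0.531% and 0.252% of the reads of DD Tg and 0.338% and 0.574% of those of WT Tg. They took 0.445% and 0.581% of the reads of DD DMSO and 0.384% and 0.467% of those of WT DMSO. Each of these shares has a 95% Wilson interval no wider than 0.4611 to 0.4737, the interval of the shallowest library, and such intervals cover counting error only. The lowest and the third highest share thus came from the 2 libraries of 1 group. Of the 73 tested members, 37 had their lowest RNA-Seq value in DD Tg replicate 2, against 25.5% of all 9637 genes tested. A further 26 were lowest in WT DMSO replicate 2, against 31.0% of all genes.

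Replicate numbers split some members widely. MRPL12, the stalk protein that also binds the mitochondrial RNA polymerase, was read at 10.3 and 9.30 RPKM in DD Tg libraries and at 2.62 and 42.3 RPKM in those of WT Tg. It was at 6.21 and 24.2 RPKM for DD DMSO and at 2.01 and 42.7 RPKM for WT DMSO. In every group but DD Tg its second library was several times the first. On the log2 scale the second library exceeded the first by 3.58 in WT Tg and 3.86 in WT DMSO, the highest of any member there. Over the tested members the median of the second minus the first library was -0.93 in DD Tg, against -0.30 over all genes. It was 0.35 in WT Tg (all genes -0.09), 0.27 in DD DMSO (-0.13) and -0.19 in WT DMSO (-0.39). Across the 73 members this shift correlated with r = 0.923 between WT Tg and WT DMSO and with r = -0.022 between DD Tg and WT DMSO, values that share no library within a pair and carry no test.

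The first question was what Tg does to these mRNAs in WT cells. No member passed the test. A call here is a Benjamini-Hochberg adjusted p under 0.05 from limma, fitted to log2(RPKM + 1) of every gene with enough signal. Limma called 0 of 73 members and 0.0% of the 9637 genes. At an unadjusted p under 0.05 it had 0 members, against 0.249% of all genes. Limma with voom weights on reads recovered from the RPKM also called 0 members, and 0 of all genes. Members had a median log2 difference of 0.12, as did all genes. Within the first pair of libraries the member median was 0.12 below that of all genes and within the second pair 0.15 above it. Of the members, 17 (23.3%) were higher in Tg in both pairs, against 38.1% of all genes, and 7 (9.59%) were lower in both, against 15.4%. MRPL44, a large-subunit protein with a fold of the RNase III family, had the largest value at 0.74 ± 0.60 (SE, adjusted p = 1.0). It stood at 7.90 and 7.77 RPKM in WT Tg against 6.64 and 2.66 RPKM in WT DMSO. MRPL21 had the smallest at -0.56 ± 0.82 (SE).

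In DD cells the members' median Tg minus DMSO log2 difference was -0.32, against 0.02 over all genes, and limma again called 0 of 73 (0.0% of all genes). It had 0 members at an unadjusted p under 0.05, against 0.259% of all genes, and voom called 0 members and 0 of all genes. Of the members 10 (13.7%) were higher in Tg in both pairs, against 18.6% of all genes, and 8 (11%) were lower in both, against 10.8%. The 2 pairs of libraries went opposite ways relative to all genes, 0.13 above in the first and 0.94 below in the second. Without DD Tg replicate 2 the member median was 0.05 above that of all genes, and 0.13 above it when the replicate number was also a block. MRPS15, a protein of the small subunit, gave the lowest value at -1.13 ± 0.76 (SE). It stood at 40.6 and 12.1 RPKM in DD Tg against 53.9 and 46.9 in DD DMSO, without overlap, and the difference was -0.30 without DD Tg replicate 2. MRPL1, of the stalk near the tRNA exit, gave the highest value at 0.72 ± 0.75 (SE), with MRPS9 at 0.71 ± 0.62 and MRPS31 at 0.67 ± 0.70, each without overlap between DD Tg and DD DMSO.

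For DD against WT in Tg the member median was -0.12, against 0.05 over all genes, and 0 of 73 members were called (0.0% of all genes) by limma or with voom. None had an unadjusted p under 0.05, against 0.851% of all genes. Higher in DD in both pairs were 15 members (20.5%), against 20.1% of all genes, and lower in both were 4 (5.48%), against 11%. Relative to all genes the median was 0.43 within the first pair and -0.83 within the second, and 0.25 without DD Tg replicate 2. MRPL55, a protein specific to mitochondria, had the lowest difference at -1.51 ± 0.94 (SE). It was read at 43.8 and 22.2 RPKM in DD Tg against 44.9 and 182 in WT Tg. The highest were MRPL1 at 1.19 ± 0.75 and MRPS9 at 1.10 ± 0.62 (SE), and both were also above 0 within each pair.

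In DMSO, where the outlying DD Tg library plays no part in the means, the members' median lay slightly higher in DD than in WT cells. The member median of DD minus WT was 0.33, against 0.13 over all genes, and relative to all genes it was 0.20 within the first pair and 0.18 within the second. Of 73 members 44 (60.3%) were higher in DD in both pairs, against 37.6% of all genes, and 3 were lower in both, against 17.1%. The share was 20 of 27 among MRPS members and 24 of 46 among MRPL members. Limma called 0 of the 73 members (0.0% of all genes called), and voom called 0 members and 0 of all genes. In the main limma fit 0 members had an unadjusted p under 0.05, against 0.706% of all genes. MRPS25 had the largest difference at 1.08 ± 0.68 (SE), followed by MRPS15 at 1.07 ± 0.76 and MRPL44 at 0.99 ± 0.60, all with adjusted p = 1.0. MRPS15 was read at 53.9 and 46.9 RPKM in DD DMSO against 25.1 and 21.9 in WT DMSO, without overlap. MRPL44 was read at 8.20 and 10.9 RPKM in DD DMSO against 6.64 and 2.66 in WT DMSO. MRPL55 was lowest at -1.06 ± 0.94 (SE), at 34.9 and 49.0 RPKM in DD DMSO against 48.4 and 158 in WT DMSO. The relative median was 0.00 without DD DMSO replicate 2 and 0.38 without DD DMSO replicate 1. The mitochondrial ribosomal RNAs took 42.2% and 25.4% of the reads in DD DMSO against 43.8% and 34.1% in WT DMSO, and their part in this shift was not tested.

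The interaction, the Tg difference in DD minus that in WT, had a member median of -0.46, against -0.10 over all genes, with 0 of 73 called (0.0% of all genes) by limma or with voom. None had an unadjusted p under 0.05, against 0.218% of all genes. Above 0 in both pairs were 3 members (4.11%), against 13.8% of all genes, and below 0 in both were 14 (19.2%), against 16.4%. Relative to all genes it was 0.32 in the first pair and -0.97 in the second, and 0.05 without DD Tg replicate 2. The plot of members against all genes shows how far the pairs differ in the 3 comparisons that contain DD Tg.

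**Figure D2:**
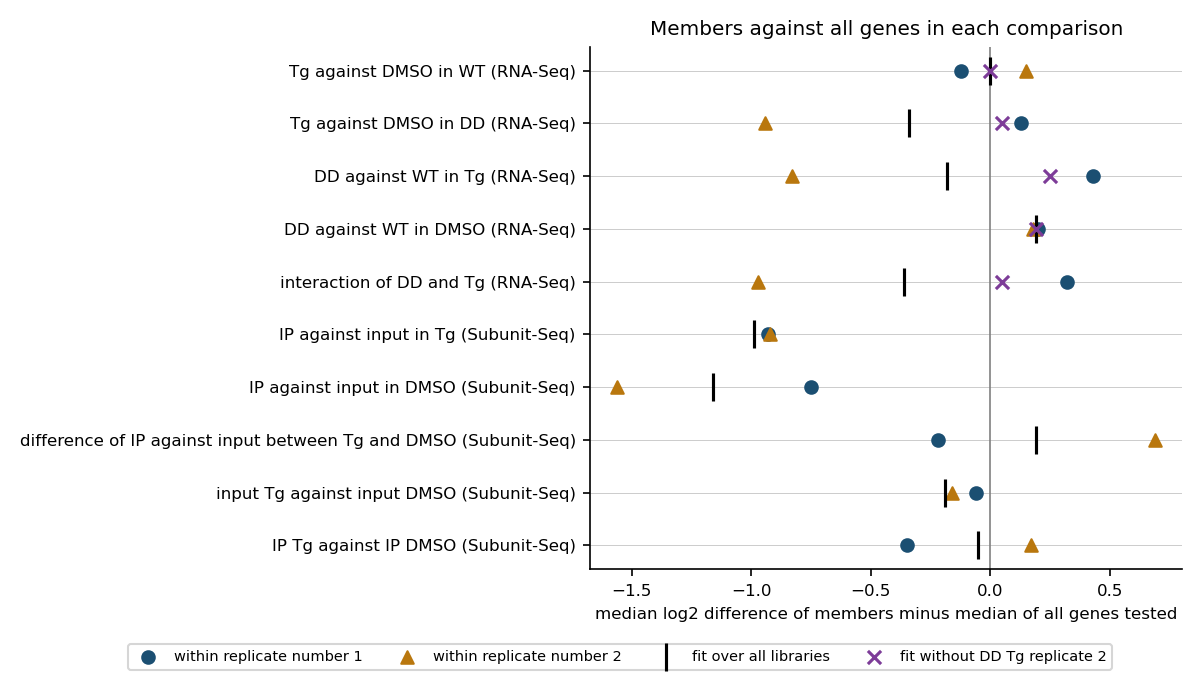
Median log2 difference of the members minus the median of all genes tested, for each comparison (rows), within the first pair of libraries (circles), within the second pair (triangles), in the fit over all libraries (bars) and without DD Tg replicate 2 (crosses, RNA-Seq). Comparisons with DD Tg have circles right and triangles left of 0, whereas IP against input lies left of 0 in every pair, at -0.93 and -0.92 in Tg and -0.75 and -1.56 in DMSO.

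Subunit-Seq asked which mRNAs are recovered with the cap-binding part of eIF3d. Relative to other genes the members were recovered less. In Tg the median IP minus input log2 difference of the 74 tested members was -0.12, against 0.87 over all 9813 genes, and in DMSO it was -0.19, against 0.96. In all, 4 of 74 members in Tg and 7 of 74 in DMSO lay above the median of all genes. The distance from all genes was -0.93 and -0.92 within the 2 pairs of libraries in Tg and -0.75 and -1.56 in DMSO. Over all libraries it was -1.16 in DMSO, and -0.93 without input DMSO replicate 2. The medians of MRPL and MRPS members were -0.12 and -0.15 in Tg and -0.22 and -0.19 in DMSO. Lower in IP in both pairs were 31 members (41.9%) in Tg, against 9.52% of all genes, and 34 (45.9%) in DMSO, against 9.97%. Higher in both were 24 (32.4%) in Tg, against 72.2%, and 17 (23.0%) in DMSO, against 64.0%. The mitochondrial ribosomal RNAs took 0.286% to 0.705% of the reads in the IP libraries against 4.64% to 20.4% in the inputs, and their part in these values was not tested. With size factors set by the median ratio of genes, the median of all genes was -0.15 in Tg and -0.12 in DMSO, and that of the members -1.36 and -1.62. The sign of a single member's difference therefore depends on the scaling: MRPS5, at 1.11 and 1.15 here, was at -0.06 and -0.16 with that scaling.

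**Figure D3:**
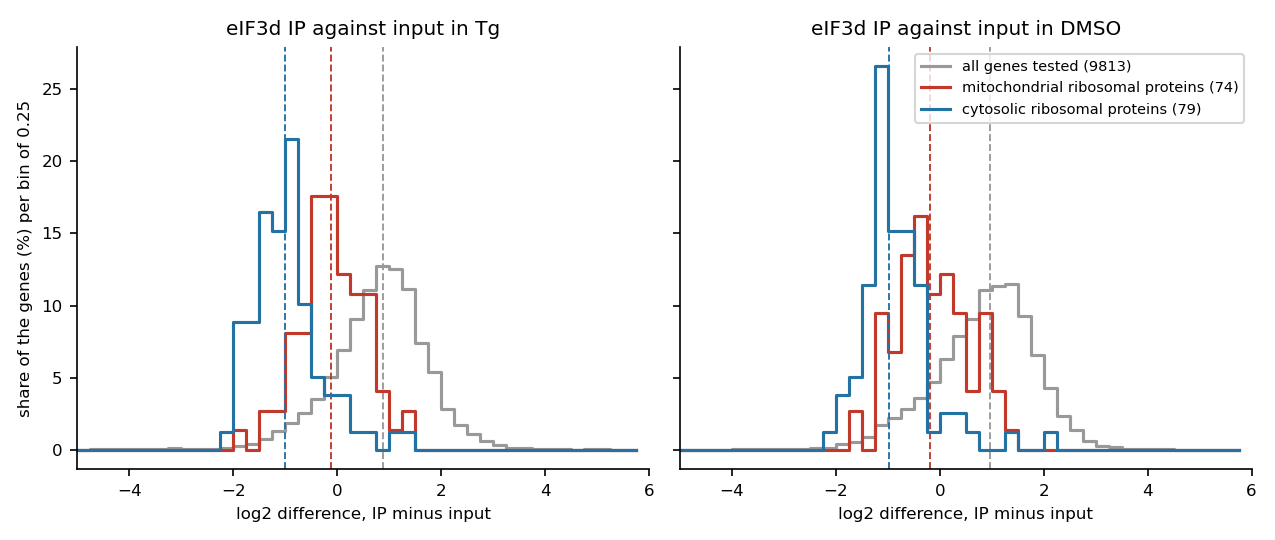
Distribution of the IP minus input log2 difference (share of genes per bin of 0.25) in Tg and DMSO for all 9813 genes tested, the 74 tested members and 79 cytosolic ribosomal protein genes; dashed lines are medians. The members' curve sits between that of cytosolic ribosomal proteins, with medians of -1.01 and -0.97, and that of all genes, with medians of 0.87 and 0.96.

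No member was called higher in IP by limma, in Tg or DMSO, against 14.6% and 21.4% of all genes. With voom 0 members were called in either direction, among 191 genes called in Tg and 666 in DMSO, out of 9800. At an unadjusted p under 0.05 in the main limma fit there were 5 members in each treatment, against 34.9% of all genes in Tg and 41.2% in DMSO. A single member was called lower in each treatment, against 1.62% of all genes in Tg and 1.75% in DMSO, so 1 of 74 is close to the background for lower calls. Calls in either direction made up 16.2% of all genes in Tg and 23.2% in DMSO, more than among the members. In Tg it was MRPS18A, at 11.6 and 4.14 RPKM in IP Tg against 27.0 and 31.0 in input Tg. The groups did not overlap, and the log2 difference was -1.90 ± 0.67 (SE, limma adjusted p = 0.0359). In DMSO MRPS18A had -1.60 ± 0.67 (limma adjusted p = 0.0613), at 7.06 and 11.7 RPKM in IP DMSO against 41.6 and 21 in input DMSO. Its call in Tg was lost at 10 of the settings tried, with limma adjusted p from 0.065 to 0.66, while the difference stayed between -1.27 and -2.53 when 1 library was left out.

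In DMSO the called member was MRPL41, at 150 and 180 RPKM in IP DMSO against 522 and 444 in input DMSO. Its log2 difference was -1.55 ± 0.55 (SE, limma adjusted p = 0.0304). In Tg MRPL41 stood at 80.0 and 170 RPKM in IP Tg against 334 and 256 in input Tg, a log2 difference of -1.32 ± 0.55 (SE, limma adjusted p = 0.0752). MRPL58, a peptidyl-tRNA hydrolase built into the large subunit that frees stalled ribosomes, was also among the 3 lowest, with -1.35 ± 0.64 in Tg and -1.21 ± 0.64 in DMSO (SE). Its values were 41.6 and 47 RPKM in IP Tg against 77.1 and 170 in input Tg. MRPS18A, MRPL41 and MRPL58 were lower in IP in both pairs of libraries of each treatment. The MRPL41 call was lost without any 1 of the 4 DMSO libraries, with limma adjusted p from 0.101 to 0.386, and without either input Tg library, at 0.0617 and 0.0669.

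The paralogs MRPS18B and MRPS18C had lower IP than input values too, without passing the test. MRPS18B, at 17.2 and 10.4 RPKM in IP Tg against 21.6 and 26.3 in input Tg, had a log2 difference of -0.79 ± 0.67 (SE). MRPS18C, at 1.24 and 0.767 RPKM in IP Tg against 3.58 and 2.63 in input Tg, had -1.04 ± 0.59. In DMSO the values were -0.90 ± 0.67 for MRPS18B and -1.20 ± 0.59 for MRPS18C.

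At the other end MRPS17, MRPL30 and MRPS5 had the 3 highest values in both treatments. MRPS17 gave 1.37 ± 0.60 in Tg and 1.23 ± 0.60 in DMSO (SE), at 4.51 and 4.51 RPKM in IP Tg against 1.36 and 0.924 in input Tg. MRPL30 gave 1.30 ± 0.66 and 1.41 ± 0.66, and MRPS5, of the small subunit's mRNA entry side, 1.11 ± 0.66 and 1.15 ± 0.66. MRPS27, a pentatricopeptide repeat protein, gave 0.88 ± 0.66 and 1.11 ± 0.66, at 12.9 and 14.9 RPKM in IP Tg against 8.13 and 6.19 in input Tg. None of the 4 passed the test in the fit over all libraries. Without input DMSO replicate 1, so that input DMSO is the outlying library alone, 10 members passed in DMSO, all higher in IP, among 5073 genes called. Without input DMSO replicate 2 no gene passed there. The single library left in each case is assumed to vary like the others. Calls of IP against input in DMSO thus turn on which input library is kept.

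The other members with known roles lay between these ends. In Tg the log2 difference was 0.66 ± 0.66 for MRPL12, 0.35 ± 0.66 for MRPL3, which lies near the peptidyl transferase centre, and -0.31 ± 0.63 for MRPL11 of the stalk base (SE). It was -0.53 ± 0.63 for MRPS12 at the decoding centre, -0.22 ± 0.52 for MRPS34 and -0.22 ± 0.65 for MRPS16. MRPS22, MRPS7 and MRPS2, all known from mitochondrial disease, had -0.21 ± 0.63, -0.02 ± 0.66 and -0.43 ± 0.67. None of these is further from 0 than its SE on this scale.

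The members are shorter and more abundant than most genes tested, and recovery varied with both. Their median gene model was 2502 bases long, against 3960 for all genes, and their median mean input level was 32.0 RPKM, against 3.95. Genes were cut into 5 equal groups by input level. In the highest group, which held 52 of the 74 members, the member median was -0.23 in Tg and -0.37 in DMSO, against 0.07 and 0.08 for all genes there. In the group below it, with 16 members, it was 0.35 and 0.43, against 0.84 and 0.98. Level is part of the difference itself, since input is subtracted. By length, the shortest of 5 equal groups held 20 members with medians of -0.10 in Tg and -0.28 in DMSO, against 0.16 and -0.02 for all its genes. In the next group 33 members had -0.22 and -0.16, against 0.66 and 0.71. Among all genes recovery was higher in longer genes (Spearman rho = 0.38 in Tg and 0.48 in DMSO across genes). Among members the relation was weak (rho = 0.12 and 0.13 across 74 genes of the same libraries). Against input level rho was -0.42 and -0.48 among members and -0.33 and -0.28 among all genes. Members minus all genes was -0.30 in Tg and -0.45 in DMSO in the highest group by level and -0.49 and -0.55 in the one below it, and -0.99 and -1.16 over all genes.

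**Figure D4:**
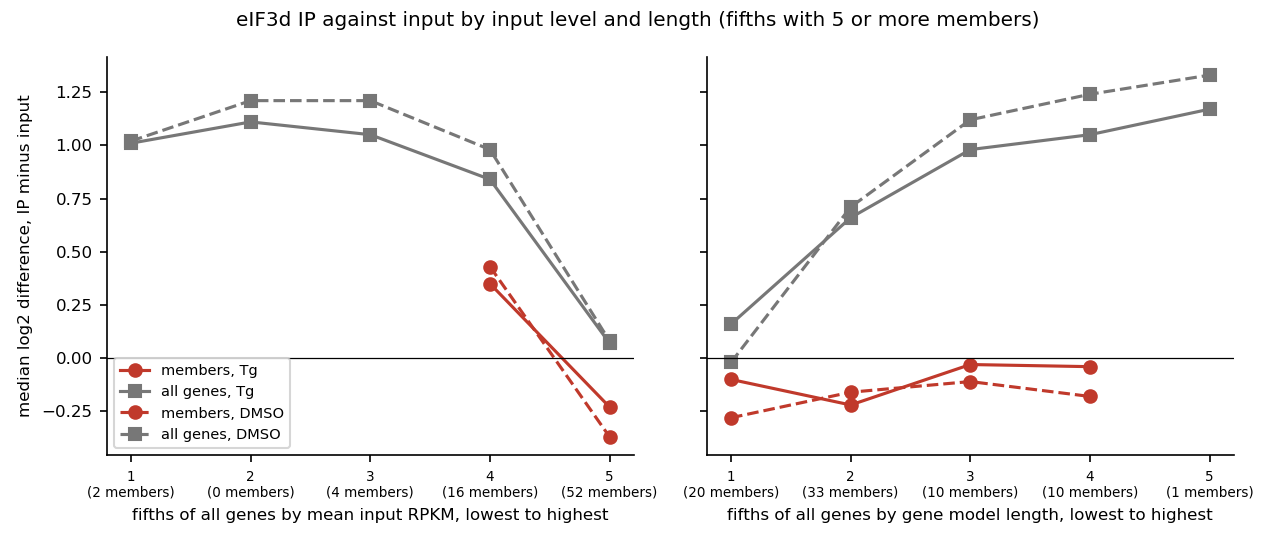
Median IP minus input log2 difference in Tg (solid) and DMSO (dashed) for members (red circles) and all genes (grey squares), in 5 equal groups of all genes by mean input RPKM (left) and by gene model length (right); members are drawn where a group holds at least 5 of them. Red lies below grey wherever both are drawn, by less at high input level, where most members are, and by more among longer genes.

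No member's recovery passed the test for a difference between Tg and DMSO. The difference of IP against input between Tg and DMSO had a member median of 0.13, against -0.07 over all genes. Relative to all genes it was -0.22 in the first pair and 0.69 in the second. Limma called 0 of 74 members, against 0.0611% of all genes, and 0 members had an unadjusted p under 0.05, against 0.876%. Above 0 in both pairs were 21 members (28.4%), against 13.5% of all genes, and below 0 in both were 2 (2.7%), against 8.61%. The relative median was 0.19, and -0.01 without input DMSO replicate 2. In input Tg against input DMSO the member median was -0.03, against 0.15, with 0 of 74 called, against 0.051%, and 0 members had an unadjusted p under 0.05, against 3.29%. Relative to all genes it was -0.19, and 0.01 without input DMSO replicate 2. Higher in input Tg in both pairs was 1 member (1.35%), against 18% of all genes, and 19 (25.7%) were lower in both, against 14.5%. In IP Tg against IP DMSO it was 0.02, against 0.07, with 0 of 74 called, against 0.0713%, and 0 had an unadjusted p under 0.05, against 1.68%. Higher in IP Tg in both pairs were 12 members (16.2%), against 29.6% of all genes, and 10 (13.5%) were lower in both, against 14.5%. With voom 0 members, and 0 of all genes, were called in each of the 3 comparisons. MRPL41 had -0.72 ± 0.55 (SE) in input Tg against input DMSO and -0.49 ± 0.55 in IP Tg against IP DMSO. MRPS33 had the highest difference of recovery at 0.63 ± 0.95 and MRPL44 the lowest at -0.68 ± 0.94 (SE).

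Related gene lists give a frame for these values, and over all genes tested 14.6% were called higher and 1.62% lower in Tg, and 21.4% higher and 1.75% lower in DMSO. Mitoribosome proteins with other names, 5 genes, had a median IP minus input of 0.04 in Tg and 0.06 in DMSO, with 0 called in either direction. The mitochondrial translation factors, which start, extend and end protein synthesis there, had 0.74 and 0.80 over 10 tested genes, with 1 called higher in Tg and 2 in DMSO. The 21 tested assembly factors, which build and modify the mitoribosome, had 0.64 and 0.85, with 0 called in Tg and 1 higher in DMSO. Known activators of the MRP genes had 1.10 and 1.30 over 7 genes, with 1 and 2 called higher. The 79 tested cytosolic ribosomal protein mRNAs had -1.01 and -0.97, with 32 called lower in Tg, and with 31 called lower and 1 higher in DMSO. The 13 mitochondrially encoded mRNAs, which the mitoribosome translates, had -0.34 and -0.26, with 2 called lower in Tg, and with 3 lower and 2 higher in DMSO. Their median in Tg went opposite ways in the pairs, 0.63 in the first and -1.35 in the second, and in DMSO it was -0.16 and -0.52.

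In RNA-Seq 0 genes of these lists were called by limma in any comparison. In DD against WT in DMSO the median log2 difference was 0.31 for the mitoribosome proteins with other names, 0.27 for translation factors, 0.14 for assembly factors, 0.09 for activators and 0.76 for the mitochondrially encoded mRNAs, against 0.33 for the members and 0.13 for all genes. In Tg against DMSO in DD cells the cytosolic ribosomal protein mRNAs had -0.65, with 0.21 and -1.47 relative to all genes in the 2 pairs, and the members had 0.13 and -0.94.

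The m6A lists placed sites on 33 of the 78 members, counted by position within RefSeq gene spans. The DD Tg list had a site on 28 members (35.9%), the WT Tg list on 6 (7.69%), the DD DMSO list on 10 (12.8%) and the WT DMSO list on 10 (12.8%). The lists are of unequal size, with 5050 sites in DD Tg, 1572 in WT Tg, 1796 in DD DMSO and 3000 in WT DMSO. Over all protein-coding genes the shares with a site were 9.48%, 2.6%, 2.87% and 5.45%. Each list combines the libraries of its group and carries no score or coverage, so it has no replicate error and no test is given. Of the 33 members 17 were in the DD Tg list alone, which is the longest list. The matching share of all protein-coding genes was not counted, so this is not shown to be particular to the members. On all 58 occasions where the gene's strand was known, the site lay on that strand.

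The share of genes with a site was larger at higher RNA levels, among members and other genes. Among genes at 50 RPKM or more in RNA-Seq, 9 of 13 members (69.2%) had a DD Tg site, against 60.8% of 418 other protein-coding genes. At 10 to 50 RPKM it was 14 of 42 members (33.3%), against 30.5% of 1305 other genes. At 1 to 10 RPKM it was 4 of 18 (22.2%), against 13% of 6037. In the WT Tg list the shares were 3 of 13, 3 of 42 and 0 of 18 members, against 21.3%, 7.43% and 3.06% of other genes. In the DD DMSO list they were 2 of 13 (15.4%), 5 of 42 (11.9%) and 2 of 18 (11.1%), against 27%, 8.12% and 2.95%, so members were below other genes at the highest level and above them at the lower levels. In the WT DMSO list they were 4 of 13, 4 of 42 and 1 of 18, against 40.2%, 15.5% and 7.19%.

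**Figure D5:**
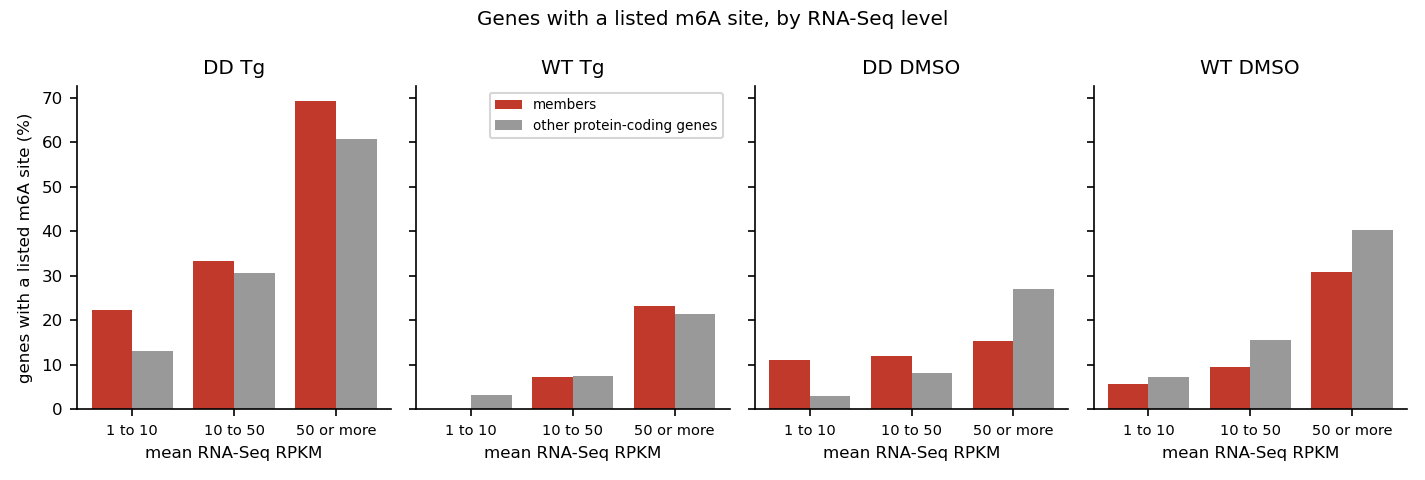
Share of genes with a listed m6A site (bars from 0, in %) by mean RNA-Seq RPKM, for members (red) and other protein-coding genes (grey), in the DD Tg, WT Tg, DD DMSO and WT DMSO lists. Both rise with level, to 69.2% of members and 60.8% of other genes at 50 RPKM or more in DD Tg.

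MRPL12 and MRPL41 were the members with a site in each of the 4 lists. Of 51 distinct member sites 1 was in all 4 lists, chr17:81707396-81707396 (GRCh38) in MRPL12, 121 bases before the annotated end of the gene. MRPL41 had its sites 73, 0, 124 and 73 bases before the gene end in DD Tg, WT Tg, DD DMSO and WT DMSO, each close to the end. Other members with sites included MRPS26 in DD Tg, WT Tg and WT DMSO, MRPL37 and MRPL4 in DD Tg, WT Tg and DD DMSO, and MRPS7, MRPS11 and MRPL17 in DD Tg, DD DMSO and WT DMSO. MRPS24, at a mean of 0.0688 RPKM, had a DD DMSO site 48 bases before its end.

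A few sites lay at the very start of a gene. The 6 sites whose flanks of 12 bases lie wholly inside the promoter windows are shown with those flanks and the listed base in capitals, from RefSeq, 5′ to 3′ along the gene's strand. A further DD Tg site, 38 bases after the first base of MRPL55, has a flank that runs past its window and is neither shown nor counted. Sites in members without a matched promoter are left out as well. Among them is a WT DMSO site of MRPL21 on the minus strand, at chr11:68903810, near the upper end of its span at 68903832.
MRPL3 (chr3:131502957-131502981, minus strand): tctttccgtcgcAgagagcatcggc
MRPL12 (chr17:81703358-81703382, plus strand): ggctagagcgtcAtttccggctcga
MRPL55 (chr1:228109287-228109311, minus strand): gcagcgcctgccAgtgacgtcgtgg
MRPS11 (chr15:88467696-88467720, plus strand): ctgactggggtcAattcaagtcatg
MRPS23 (chr17:57850025-57850049, minus strand): ccggtagcagctAgtcacgctcggt
MRPS34 (chr16:1773094-1773118, minus strand): tggcgcggaagaAggtgcgtccgcg
The 6 shown fall on an A, 5 of them within the first 8 bases of the gene, and the base after the A is a C in 0 of these 6, whereas the usual m6A motif has a C there. Antibodies to m6A also bind m6Am, the methylated form of an A at the first base of an mRNA. Which form the sites shown hold was not tested. The site was at base 1 in MRPL55 and MRPS11, 3 in MRPL3, 4 in MRPL12, 8 in MRPS23 and 29 in MRPS34. The MRPL12 and MRPS11 sites were in the DD Tg and DD DMSO lists, and MRPS11 also had a WT DMSO entry that covers its first 2 bases. The other 4 were in the DD Tg list alone. MRPL12 was at 10.3 and 9.30 RPKM in DD Tg RNA-Seq against 2.62 and 42.3 in WT Tg, where its start site was not listed.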

How the data were processed

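RNA-Seq (8 libraries), Subunit-Seq (8) and m6A-eCLIP (16) made up the 32 samples. The gene tables hold RPKM as deposited by the authors. Tools listed in the submitters' processing notes were BWA, DESeq2, STAR and cutadapt, with GRCh38 as the build; the gene counter, annotation and site caller are not given in the sources used here. The m6A files deposited by the authors hold positions only, with 1 list per genotype and treatment, per the labels. RNA-Seq RNA was poly(A)-selected, per the labels' protocols.

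Reads and gene lengths were recovered from the whole-number steps of the RPKM, in 26179 genes above 0 in at least 3 libraries, within 0.02 reads. Genes averaging 1 RPKM or more across the 8 RNA-Seq libraries (9637) or across the 4 inputs (9813) were fitted by limma 3.58.1 (R 4.3.3; moderated with a trend by eBayes) as log2(RPKM + 1), a scale that understates changes of low genes. Each assay was fitted as a whole with 4 group means and two-sided tests, and p-values were adjusted by Benjamini-Hochberg across the assay's genes. Residual degrees of freedom were 4 in RNA-Seq (prior 5.73) and 3 in Subunit-Seq (infinite prior). With the infinite prior, SEs and p-values in Subunit-Seq use the trend over all genes and not how far a member's own libraries differ. Subunit-Seq had a replicate block, since replicates 1 and 2 came in separate tables, each normalized on its own, and levels there are set across tables. Error terms are the SE of the fit, and a pair is the libraries with the same replicate number. In RNA-Seq the shift between replicates 1 and 2 correlated across all genes with r from 0.743 to 0.864 among WT Tg, DD DMSO and WT DMSO. With DD Tg r was 0.134 to 0.299 across all genes and -0.022 to 0.059 across members. The numbers thus pair the samples of the other groups but hardly those of DD Tg, as a finding in the data and not a label. The main RNA-Seq fit had no block for this pairing. In Subunit-Seq r was 0.002 to 0.51.

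Named genes were, per comparison, the 3 highest and 3 lowest members and the called ones, plus members with described roles, the extremes by level and members with an m6A site; the text prints part of them. The members and lists were chosen with earlier results of these data known. Alternatives were a pseudocount of 0.1, other filters, the block, median-ratio scaling, voom on recovered reads and leaving out each library. The fits were also run on simulated reads. These had no replicate shift and no outlying library, so that run does not bear on the spread seen in these libraries.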

Additional observations from a re-analysis of the deposited data

Results flagged for a closer look

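MRPS15 was singled out because its libraries were ordered in opposite ways in DD and WT cells, although neither difference passed the test. Both DD Tg libraries, at 40.6 and 12.1 RPKM, lay below both DD DMSO libraries, at 53.9 and 46.9. Both WT Tg libraries, at 25.2 and 34.1 RPKM, lay above both WT DMSO libraries, at 25.1 and 21.9, but within the first WT pair the log2 difference was only 0.01. The log2 difference was -1.13 ± 0.76 (SE) in DD cells and 0.31 ± 0.76 in WT cells. Their difference, the interaction of -1.45 ± 1.08, did not pass limma's test (adjusted p = 1.0). Without the second DD Tg library, which stands apart in other ways, the DD difference was -0.30 and the interaction -0.61. MRPS15 came from a search of all 73 tested members for such an ordering. How many of all genes are ordered so was not counted, so the ordering is not shown to be unusual.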

How the results depend on the processing

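In RNA-Seq 0 members were called under every alternative run, including the replicate block, without and with DD Tg replicate 2 left out. The main fit and voom called 0 of all genes in each RNA-Seq comparison too, so these counts do not set the members apart. In Subunit-Seq the fit with no replicate block called 0 members for IP against input in Tg and 0 in DMSO (36 and 24 genes), in place of 1 and 1. In Tg the count was also 0 with a pseudocount of 0.1 (447 genes called), no filter (0 genes) or voom (191 genes). It was 2 with the filter on all 8 libraries (2991 genes), MRPS18A lower and MRPL53 higher in IP. MRPL53 averaged 0.827 RPKM over the inputs. It entered that filter only through its IP values, the side on which it was called. In DMSO the count of members was also 0 with no filter (0 genes called), median-ratio scaling (29 genes) or voom (666 genes). Leaving out 1 library gave 0 to 3 members in Tg (114 to 2905 genes) and 0 to 10 in DMSO (0 to 5073 genes). A library left alone in its group is assumed to vary like the others.

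The member median relative to all genes kept its sign in all 14 alternatives for IP against input. In Tg it was -1.20 with a pseudocount of 0.1, -0.34 with no filter, -1.06 with the filter on all 8 libraries, and -1.21 with median-ratio scaling and -1.21 with voom. Leaving out 1 library gave -1.10 to -0.90 in Tg and -1.48 to -0.83 in DMSO, and no filter gave -0.33 in DMSO. For input Tg against input DMSO it was -0.32 with a pseudocount of 0.1, -0.03 with no filter, -0.34 with median-ratio scaling, -0.33 with voom and -0.32 to 0.01 without 1 library. For DD against WT in DMSO it was 0.29 with no filter, 0.14 with median-ratio scaling and 0.00 to 0.38 without 1 library. For Tg against DMSO in WT it was -0.23 to 0.26 without 1 library. Without 1 library it was -0.10 to 0.41 for the difference of recovery between Tg and DMSO, with the opposite sign in 2 of 14 alternatives, and -0.34 to 0.23 for IP Tg against IP DMSO, with the opposite sign in 3 of 14.

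Members changed sign when 1 library was left out. In WT, Tg against DMSO ranged from -0.91 to 0.14 for MRPL15, from -1.38 to 0.66 for MRPL41 and from -0.26 to 1.44 for MRPS2. In DD it was -2.21 to 0.13 for MRPL10. With the replicate block and without DD Tg replicate 2 it was 0.55 for MRPL41 and 0.38 for MRPL10, and DD against WT in Tg was 0.10 for MRPL4. DD against WT in DMSO was -0.72 to 0.14 for MRPL54 and -0.72 to 0.27 for MRPL57, and the interaction of MRPS9 was -0.11 to 0.88. The Tg minus DMSO difference of recovery was -1.69 to 0.33 for MRPL44 and -1.30 to 0.20 for MRPS35. Input Tg against input DMSO was -0.11 to 1.23 for MRPL37, -0.14 to 1.36 for MRPS35 and -0.04 to 1.32 for MRPS9. IP Tg against IP DMSO was -1.09 to 0.11 for MRPL41, -1.21 to 0.28 for MRPL23 and -0.27 to 1.09 for MRPS18B. With median-ratio scaling MRPS5 was at -0.06 in Tg and -0.16 in DMSO for IP against input. The causes were not tested, and 2 libraries a group limit every comparison.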
